A study of Homo sapiens with 2 samples.

Results

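The genes described here are 41 genes of DNA replication and S phase, chosen by symbol for their known roles. Earlier results of these data were known when they were chosen. Of the 41 genes, 39 carried a named probe set on the array and 38 passed the filter on dim genes. In all, 14884 genes were named and 7442 kept. GMNN, which encodes geminin, the inhibitor of CDT1, and ATAD2 had no named probe set here. Where a gene had several probe sets, the one brightest on average was taken.

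RNA came from AsPC-1 cells, a long-established line of human pancreatic adenocarcinoma, which were overlaid with collagen gel and grown in 3 dimensions. The uncompressed group is 1 culture left without load for 24 h, and the compressed group is 1 culture held for 24 h under a compressive stress of 2.9 mmHg; no other agent or genetic change is named for either. Each RNA was read on 1 GeneChip Human Gene 2.0 ST array, which gives a log2 signal per probe set. The question put to these samples was how pancreatic cancer cells answer to compression. Since each condition has 1 array, there is no replicate check, nothing was tested, and the precision is limited by the number of arrays. Each difference is the log2 level of the compressed minus that of the uncompressed culture, and "lower" or "higher" describes these 2 arrays alone. Where a pair of levels follows a gene, the uncompressed culture comes first.

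Before a cell copies its DNA, origins are licensed in G1 by loading the MCM2 to MCM7 ring, the motor of the replicative helicase, with the help of CDC6 and CDT1. At the start of S phase CDC45 and the GINS complex join the ring and activate it, and a sliding clamp, polymerases, nucleases and a supply of deoxynucleotides then sustain the forks. Many of the genes involved are transcribed around the G1/S transition under E2F transcription factors, so their RNA is commonly used to gauge how much of a cell population is replicating.

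Transcripts of this group were lower in the compressed culture by small amounts that most members shared. Of the 38 kept members, 32 had a negative difference, 5 a positive one and 1 a difference of 0, where 46.8% of all kept genes were below 0. The median difference of the members was -0.24, a level 1.18-fold lower, against 0.0070 over all kept genes. At the size of 1.5-fold, 0 members were lower, where 1.12% of kept genes were, and 0 were higher, where 3.95% were. At a smaller size, a log2 difference of 0.32, 9 members (23.7%) were lower, where 8.28% of kept genes were, and 1 was higher, where 13.5% were. These 9 were MCM2, GINS1, DSCC1, CDT1, MCM7, RRM1, PCNA, MCM6 and TIMELESS, and the 1 higher gene was CCNE1, which encodes cyclin E1. When each array was centred on its median over kept genes, a shift of 0.07, the counts were 18 lower and 1 higher, while the share of all kept genes became 13.2% lower and 9.59% higher. The RNA is that of a whole culture, in which fewer cells in S phase and less RNA per cell cannot be told apart.

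**Figure D1:**
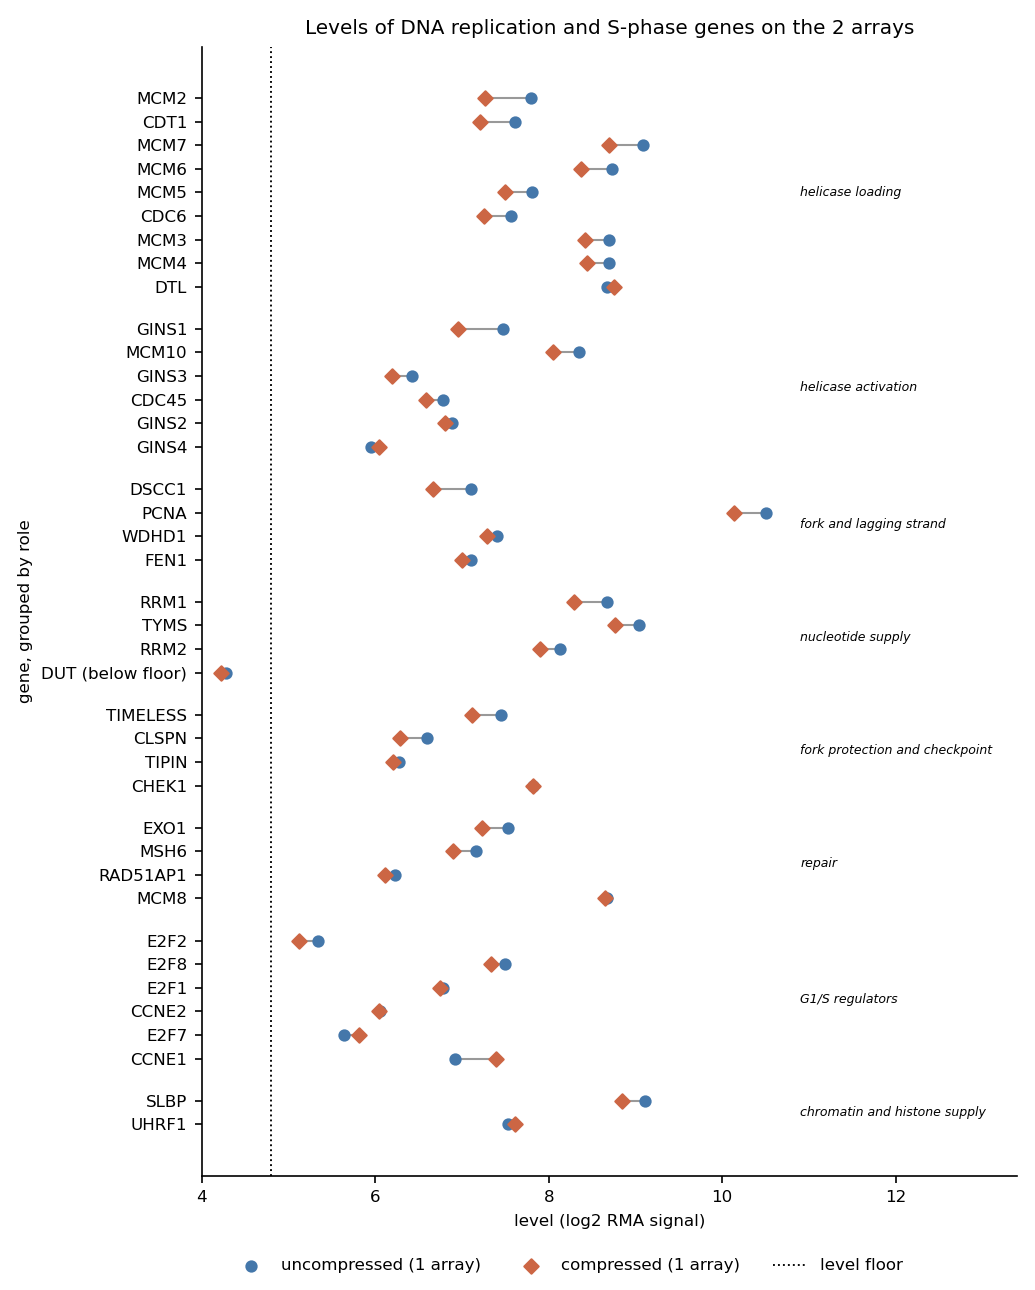
Level (log2 RMA signal, horizontal axis) of each of the 39 named members on the uncompressed (circles) and compressed (diamonds) array, grouped by role, with the floor of 4.79 as a dotted line. The diamonds lie to the left of the circles for most genes, and to the right for CCNE1, E2F7, GINS4, DTL and UHRF1; levels of different genes are not comparable.

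For scale, a probe set's difference has its own technical spread. Among the 342 kept genes with exactly 2 probe sets, the SD of a single probe set's difference was 0.264, and among the 155 of them whose probe sets were both above the floor and not identical it was 0.185. Of the 38 kept members, 19 differed by no more than 0.264 in either direction and 19 by more, CCNE1 being higher and the rest lower. Just past that size, 11.9% of kept genes were as low as MSH6 (-0.27) or lower. On the other side, 17.3% were as high as CDK6 (0.27) or higher. This spread holds no variation between cultures.

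All 6 subunits of the MCM ring were lower in the compressed culture, with differences from -0.52 to -0.24 and a median of -0.34. MCM2 read 7.79 without and 7.27 with compression, 1.44-fold lower, and 1.72% of kept genes were as low or lower in their difference. MCM7 read 9.09 and 8.69, 1.31-fold lower. MCM6 read 8.73 and 8.37, 1.28-fold lower. The ring works only as a complete hexamer, and its remaining genes were just short of that smaller size or further from it: MCM5 differed by -0.318 (7.81 and 7.49), against a limit of 0.322, MCM3 by -0.28 (8.69 and 8.41) and MCM4 by -0.24 (8.69 and 8.45).

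The loading factors were lower as well. CDT1, which brings the ring to the origin, read 7.61 without and 7.20 with compression, 1.33-fold lower. CDC6, the ATPase that loads it together with the origin recognition complex, read 7.57 and 7.26, a difference of -0.31. DTL, the substrate receptor of the ubiquitin ligase that destroys CDT1 in S phase, went the other way by a small amount, with 8.67 and 8.75, a difference of 0.08. In the licensing group as a whole, 8 of 9 kept genes had a negative difference and the median was -0.32.

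Promoters are shown because many replication genes, whatever the direction of their difference here, are known as targets of E2F factors. RefSeq promoters (GRCh38.p14) were matched for 34 of the 41 genes, and the 250 bases before the first listed start of each gene were searched for the E2F core, spelled TTNNCGC with each N either C or G, on both strands, with overlapping matches counted. The first 3 below are the members with a match and the largest negative differences among those matched; MCM6 was added after the matches were seen, because it held the most. Capitals mark the core, and each line reads 5′ to 3′ toward the start of the gene.
CDT1, chr16:88803539-88803788, plus strand: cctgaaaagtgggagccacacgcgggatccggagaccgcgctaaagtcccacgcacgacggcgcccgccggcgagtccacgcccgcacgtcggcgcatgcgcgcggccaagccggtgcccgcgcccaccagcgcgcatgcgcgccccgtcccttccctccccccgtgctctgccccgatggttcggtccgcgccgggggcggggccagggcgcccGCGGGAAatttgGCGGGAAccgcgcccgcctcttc
MCM7, chr7:100101398-100101647, minus strand: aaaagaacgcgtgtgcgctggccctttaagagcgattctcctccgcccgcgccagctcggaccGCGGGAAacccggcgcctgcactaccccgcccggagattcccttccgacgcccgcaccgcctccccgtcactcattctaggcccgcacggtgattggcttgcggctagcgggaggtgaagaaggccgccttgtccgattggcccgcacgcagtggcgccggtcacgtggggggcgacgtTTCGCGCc
RRM1, chr11:4094435-4094684, plus strand: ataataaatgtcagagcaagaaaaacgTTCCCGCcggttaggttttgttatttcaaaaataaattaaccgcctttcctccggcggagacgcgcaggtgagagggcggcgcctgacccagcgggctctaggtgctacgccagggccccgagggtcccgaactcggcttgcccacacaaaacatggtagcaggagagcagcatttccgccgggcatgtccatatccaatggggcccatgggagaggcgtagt
MCM6, chr2:135876444-135876693, minus strand: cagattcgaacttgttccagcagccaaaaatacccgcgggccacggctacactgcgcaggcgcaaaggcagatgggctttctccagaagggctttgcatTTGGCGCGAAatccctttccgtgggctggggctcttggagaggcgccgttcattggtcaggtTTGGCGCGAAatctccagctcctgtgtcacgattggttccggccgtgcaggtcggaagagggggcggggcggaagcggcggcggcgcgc

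In the CDT1 promoter 2 cores lie close together, from 35 to 29 and from 23 to 17 bases before the start. In MCM7 there are 2, the nearer of them from 8 to 2 bases before the start. RRM1 holds 1, far upstream at 223 to 217 bases. The MCM6 window holds 4 overlapping matches in 2 places, and in each place a core on one strand overlaps a core on the other. The core was present in 15 of the 34 matched members (44.1%), in 18.3% of 5884 kept genes with a promoter and in 11.0% of all 27305 promoters. With any listed promoter of a gene in place of the first, it was present in 20 of 34 (58.8%), against 21.9% of kept genes and 13.0% of all.

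Other motifs were searched in the same windows. The NF-Y box CCAAT was present in 22 of 34 members (64.7%), against 35.1% of kept genes and 33.0% of all promoters. The GC box GGGCGG was present in 26 (76.5%), against 69.3% and 42.3%. The CHR element TTTGAA, known from G2/M promoters, was present in 1 of 34, against 8.45% and 13.6%. A match is only a run of letters, and the base composition of the windows was not matched in these shares.

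Members with and without the core can be set side by side, by the first listed promoter of each gene alone. With any listed promoter 20 of 34 held it, so some members counted here as without a core have one in another promoter. The 15 kept members with a core in the window had a median difference of -0.22, and 12 were negative. The 17 kept members without one had a median of -0.27, and 15 were negative. Of the 9 genes lower by at least 0.32, CDT1, MCM7, MCM6, RRM1 and PCNA held between 1 and 4 cores, MCM2, GINS1 and TIMELESS held 0, and DSCC1 had no matched promoter. Of the 5 with positive differences, DTL, UHRF1 and E2F7 held 2 each, CCNE1 held 0, and GINS4 had no matched promoter. Over all kept genes the medians were 0.00 with a core (1076 genes) and 0.02 without (4808 genes).

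The helicase activators varied more. GINS1, a subunit of the GINS complex that joins CDC45 and the ring, read 7.47 without and 6.95 with compression, 1.44-fold lower, a difference that 1.77% of kept genes matched or passed. Its partner subunits had differences smaller in size. GINS3 differed by -0.23 (6.43 and 6.19), GINS2 by -0.09 (6.89 and 6.80) and GINS4 by 0.10 (5.95 and 6.05). A dimmer probe set of GINS4 differed by -0.19 (3.01 and 2.82), and the mean of both probe sets gave -0.04, so GINS4 has no settled sign. MCM10, needed to start unwinding, read 8.34 and 8.05, a difference of -0.30. CDC45 read 6.78 and 6.58, a difference of -0.20. On the probe sets taken, the 4 GINS genes thus spanned 0.10 to -0.52, a spread with no replicate check.

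At the fork itself, all 4 kept genes had a negative difference. PCNA, the sliding clamp, read 10.51 without and 10.13 with compression, 1.29-fold lower, and 5.48% of kept genes were as low or lower in their difference. DSCC1, a subunit of the alternative clamp loader built around CTF18, read 7.10 and 6.66, 1.36-fold lower. WDHD1, which links the helicase to polymerase alpha, differed by -0.11 (7.41 and 7.29), and FEN1, the flap nuclease that processes Okazaki fragments, by -0.10 (7.100 and 7.002). The clamp and its loader subunit were thus past a difference of 0.32, and the other two were not.

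The enzymes of nucleotide supply were all lower. RRM1, the large subunit of ribonucleotide reductase, read 8.67 without and 8.30 with compression, 1.30-fold lower. RRM2, the small subunit whose level follows the cell cycle, read 8.13 and 7.90, 1.17-fold lower. TYMS, thymidylate synthase, read 9.04 and 8.76, 1.22-fold lower. DUT, the dUTPase that keeps uracil out of DNA, read 4.28 and 4.22 and is the 1 member below the floor of 4.79, so its difference of -0.06 says little. E2F2, at 5.34 and 5.13, was the member nearest above that floor.

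**Figure D2:**
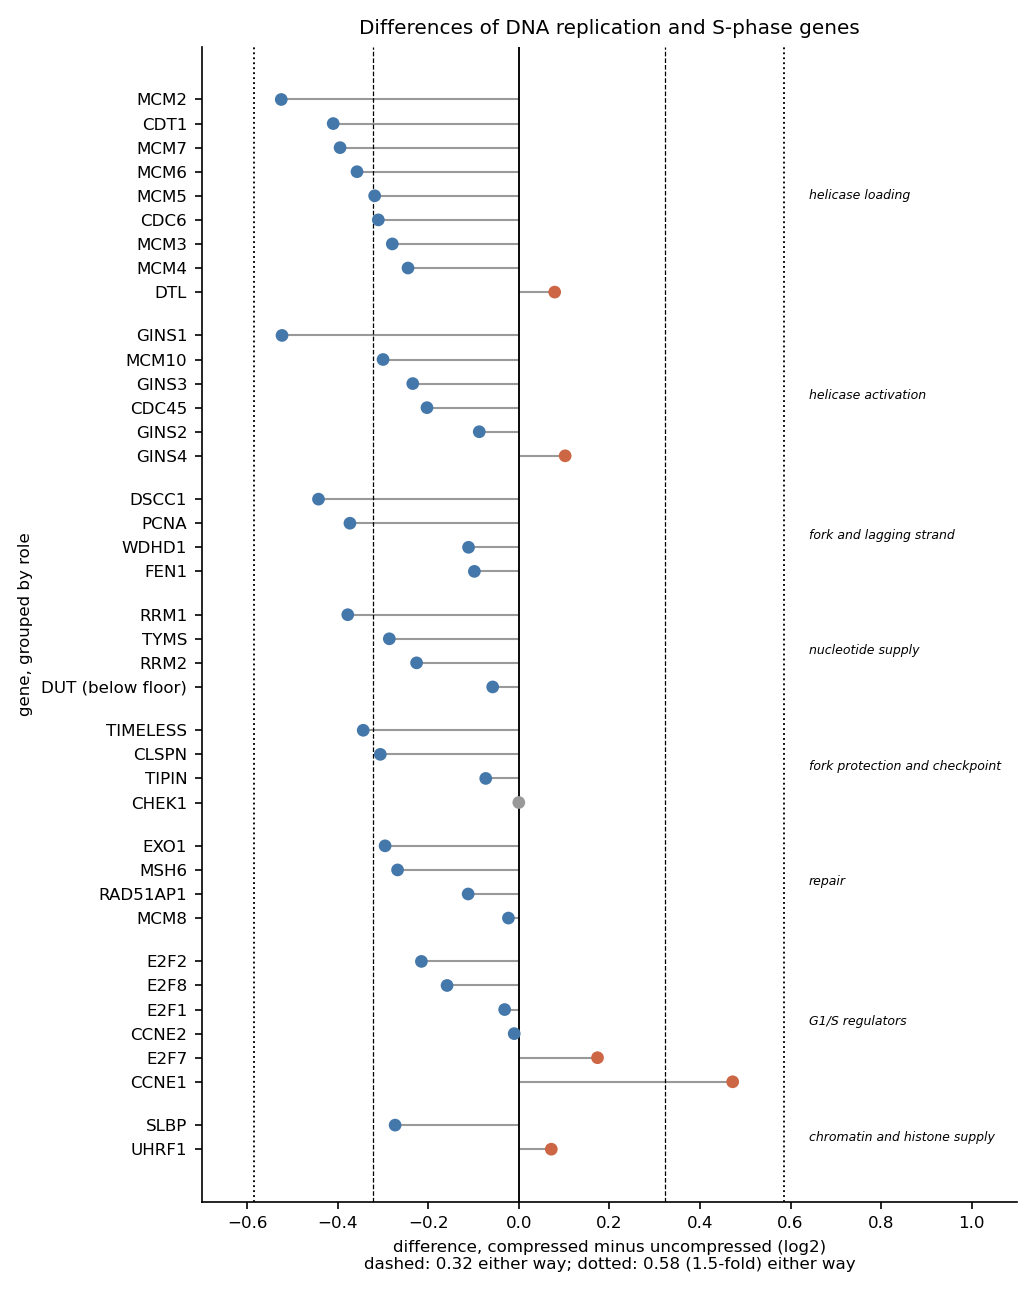
Difference, compressed minus uncompressed (log2, horizontal axis), of each named member, grouped by role, with dashed lines at 0.32 and dotted lines at 0.58 (1.5-fold) on either side of 0. No point reaches a dotted line; 9 genes lie beyond the lower dashed line and CCNE1 alone beyond the upper one.

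Among the genes that guard the fork, 3 of 4 were lower. TIMELESS, which with TIPIN forms the fork protection complex, read 7.45 without and 7.11 with compression, 1.27-fold lower. TIPIN differed by only -0.07 (6.27 and 6.20). CLSPN, the claspin adaptor that lets ATR activate CHEK1, differed by -0.31 (6.59 and 6.29), and a dim further probe set of it read 2.65 on both arrays. CHEK1, the checkpoint kinase itself, had exactly the same value, 7.81, on both arrays. Such equal values were found for 182 kept genes (2.45%).

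The repair genes had negative differences of mixed size. EXO1, an exonuclease of mismatch repair and end resection, differed by -0.30 (7.53 and 7.24), and MSH6, which recognises mismatched bases, by -0.27 (7.16 and 6.89). RAD51AP1, which acts in homologous recombination, differed by -0.11 (6.23 and 6.12). MCM8, a relative of the ring subunits that acts in recombination, differed by -0.02 (8.68 and 8.65), apart from MCM2 to MCM7. None of the 4 reached a difference of 0.32.

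The regulators of S-phase entry had a median of -0.02, with 4 of 6 negative, where all members had a median of -0.24. Of these 6, CCNE1 alone differed by more than the probe set spread of 0.264. CCNE1, which activates CDK2 at the G1/S transition, read 6.92 without and 7.39 with compression, 1.39-fold higher, and 6.62% of kept genes were as high or higher in their difference. Its paralog CCNE2 read 6.06 and 6.05, a difference of -0.01. Of the E2F factors, the activators E2F1 and E2F2 differed by -0.03 (6.78 and 6.75) and -0.22 (5.34 and 5.13). The atypical repressors differed in sign, E2F7 by 0.17 (5.63 and 5.81) and E2F8 by -0.16 (7.50 and 7.34). How the levels of these regulators relate to those of the replication enzymes was not tested.

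In the chromatin group, SLBP, which binds the stem-loop of replication-dependent histone mRNAs, read 9.11 without and 8.84 with compression, 1.21-fold lower. UHRF1, which brings DNA methyltransferase to newly copied DNA, read 7.54 and 7.61, a difference of 0.07.

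When kept genes were cut into 4 equal bands of signal, 22 of the 38 lay in the brightest band and 10 in the next. In the brightest band 19 of 22 had a negative difference, with a median of -0.29, where all genes of that band had a median of -0.0058. In the next band 9 of 10 were negative, with a median of -0.22 against 0.03. The dimmer bands held few members and did not show the shift as clearly: in the band below, 3 of 5 were negative, with a median of -0.01 against 0.04, and the dimmest held E2F2 alone. A correction for a trend of the difference with level left the members' median at -0.25.

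**Figure D3:**
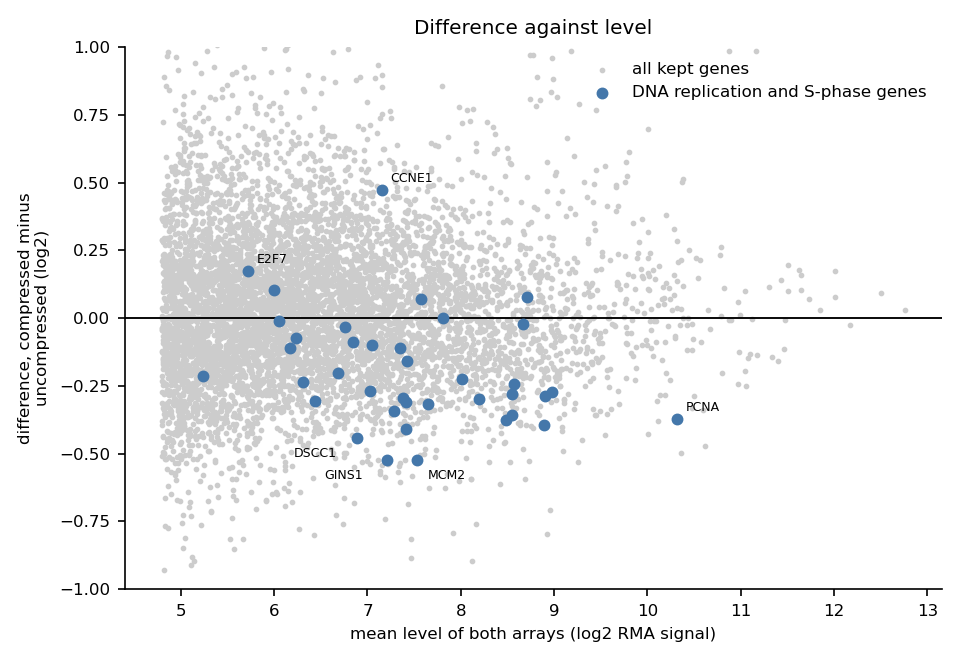
Difference, compressed minus uncompressed (log2, vertical axis), against the mean level of both arrays (log2 RMA signal, horizontal axis) for all kept genes (grey) and the kept members (blue). The members lie mostly below 0 in the brighter part of the range; 77 kept genes with differences beyond 1 in either direction are outside the plotted range.

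Other genes of the same pathway, in lists that share no gene with the members, had medians below 0 but smaller in size. Of 67 named genes in 4 such lists, 65 were kept and 48 had a negative difference, with a median of -0.15. At the size of 0.32, 8 of them (12.3%) were lower and 1 was higher, a share of lower genes not far from the 8.28% of all kept genes; 13.5% of all kept genes were higher. That 1 gene, XRCC2, was the only gene of the 4 lists past 1.5-fold.

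Among 10 kept genes of origin firing and the fork, 8 were negative, with a median of -0.13. CDC7, the kinase that triggers helicase activation by phosphorylating the ring, differed by -0.53 (7.26 and 6.73), DNA2, a nuclease and helicase, by -0.41 and MCMBP, which binds MCM subunits, by -0.30. DBF4B, an activator of CDC7, differed by 0.15 and TICRR, which helps to load CDC45, by 0.12. Only 10 of the 43 genes listed were named here, and the origin recognition, polymerase, RFC and RPA genes of the list were not analysed.

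Among 17 kept genes of nucleotide supply and replication-coupled chromatin, 15 were negative and 0 reached 1.5-fold, with a median of -0.18. ASF1B, a histone chaperone, differed by -0.44 (7.80 and 7.37), ESCO2, the cohesin acetyltransferase of S phase, by -0.36 and the cohesin subunit gene SMC1A by -0.31. IMPDH2, an enzyme of guanine nucleotide synthesis, was the 1 positive gene, at 0.16.

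The 22 kept checkpoint and repair genes were divided, with 13 negative and 9 positive and a median of -0.14, which was 0.0079 with a stricter level floor. USP1, which removes ubiquitin from PCNA, differed by -0.47 (8.54 and 8.07), ATR, the kinase of the replication checkpoint, by -0.37 and BARD1, a ubiquitin ligase subunit, by -0.30. XRCC2, a gene of homologous recombination, was 1.64-fold higher (5.78 and 6.50), and RAD9A, of the checkpoint clamp, and MCM9 differed by 0.27 and 0.16. XRCC2 stayed between 0.65 and 0.72 under the alternatives that kept it.

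Among 17 kept G1/S regulators outside the members, 13 were negative, with a median of -0.09. CCNA2, cyclin A2 of S phase and G2, differed by -0.49 (9.34 and 8.85), FBXO5, an inhibitor of the anaphase-promoting complex, by -0.36 and the phosphatase gene CDC25A by -0.25. CDK6, RBL2 and CCND1 differed by 0.27, 0.21 and 0.09. CDK2, the kinase of cyclin E, differed by -0.0079, the MuvB partner gene MYBL2 by -0.22 and RB1 by -0.21. Of 20 listed cell-cycle brakes and MuvB subunits, 7 were named, without CDKN1A, and 5 kept, with a median of 0.29 that turned to -0.12 with a stricter level floor. In this short list CDKN2A differed by 0.49 (4.84 and 5.33), the MuvB subunit genes LIN37 by 0.38, LIN54 by 0.29 and LIN9 by -0.23, and CCNG1 by -0.12.

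**Figure D4:**
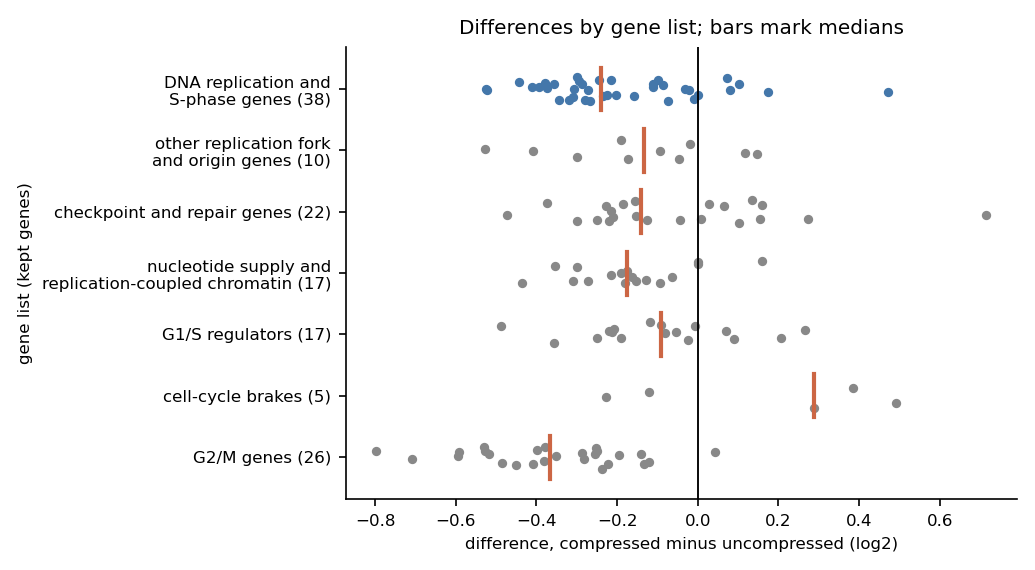
Difference, compressed minus uncompressed (log2, horizontal axis), of each kept gene in the replication members (blue) and in 6 other lists (grey), with a bar at each median and the number of kept genes in brackets; vertical scatter within a list has no meaning. The medians lie below 0 for the members and for 5 of the other lists, and above 0 for the 5 kept genes among cell-cycle brakes and MuvB subunits.

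Genes of G2 and mitosis, the group most like the members, were lower by larger amounts. Of 35 listed genes, 27 were named and 26 kept. Of the 26, 25 had a negative difference, where 46.8% of all kept genes did, and the median was -0.37. By at least 0.32, 14 (53.8%) were lower, where 8.28% of all kept genes were. At 1.5-fold 4 of the 26 were lower, where 1.12% of all kept genes were. TOP2A, topoisomerase II alpha, was at -0.80 and KIF11, a spindle kinesin, at -0.71. TTK, a spindle checkpoint kinase, and PBK, a mitotic kinase, were both at -0.59. CDC20, at 0.04, was the 1 positive gene among those kept. PTTG1, which encodes securin, was 0.67 higher (4.46 and 5.13) and was left out of these counts because its mean lay just under the floor of 4.79. The members' median was thus nearer to 0 than that of the mitotic genes, a difference that could not be tested with 1 array per condition. The part that mitotic transcripts and replication transcripts have in each other's differences was not tested.

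**Figure D5:**
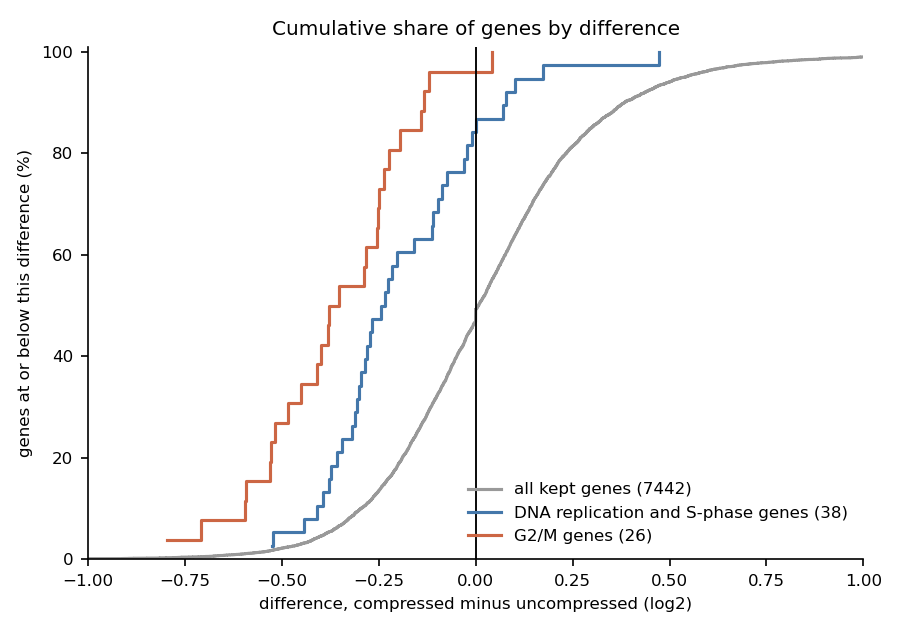
Share of genes (%, vertical axis) at or below each difference, compressed minus uncompressed (log2, horizontal axis), for the 38 kept members, the 26 kept G2/M genes and all 7442 kept genes. The members' curve lies between that of the mitotic genes and that of all genes over most of the range.

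As checks of the samples, the correlation of the arrays across kept genes was 0.972, and the medians over all probe sets were 3.75 and 3.72. Of 11 epithelial and duct markers 10 were named and 8 kept, with KRT18 at 11.54 and 11.71 and EPCAM at 10.77 and 10.43. KRT7 was below the floor, at 3.36 and 3.78. The endothelial markers KDR, PECAM1 and VWF and the leukocyte marker CD14 were below it too, as were CPA1 and GCG of acinar and islet cells. Among markers of other cell types 2 were above the floor: LUM, at 9.75 and 9.39, although DCN was at 1.79 and 1.82, and CD68, a lysosomal protein abundant in macrophages, at 8.45 and 9.26. Their part in the differences was not tested.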

How the data were processed

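Levels are the log2 values the authors deposited for 53617 probe sets; the submitters' processing notes name RMA and Transcriptome Analysis Console. Their versions and the build are not given in the sources consulted. RMA subtracts background, forces both arrays to 1 distribution and summarises probes, so a change shared by all genes is removed and changes near background shrink. The platform annotation named 16098 probe sets, all found in the RefSeq table (GRCh38.p14); 37519 were unnamed here. Genes were kept where the mean of both arrays reached the median over genes (4.79). Differences were counted at 2 sizes, 0.58 (1.5-fold) and 0.32 in log2. No detection calls were used. All members are named; of each other list, up to 3 kept genes in each direction with the largest differences, and CCND1, CDK2, RB1, CDKN1A and MYBL2; PBK and PTTG1 were named in addition, after their values were seen. The members and lists were chosen with earlier results of these data known. Counting was tested on simulated data. The alternatives were no floor, a floor at the 75th percentile, the mean of a gene's probe sets, a loess correction (span 0.3), centring, repeated quantile normalization, the mean in place of the median, and leaving out MCM2 to MCM7. Python 3.11.15, NumPy 2.4.6, pandas 2.3.3, statsmodels 0.14.6 and matplotlib 3.10.9 were used.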

Additional observations from a re-analysis of the deposited data

How the results depend on the processing

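The members' median stayed between -0.31 and -0.19 under the 8 alternatives run for it, the mean in place of the median giving -0.19 and leaving out MCM2 to MCM7 -0.21. The number of members with a negative difference was 28 of 32 to 33 of 39, and no member turned its sign where it was kept, except that CHEK1, at 0, ranged from -0.07 to 0.0040. GINS4 and CLSPN were below the floor with the mean of their probe sets. Centring on the median moved most, as it took the same 0.07 from every difference. It put 59.0% of all kept genes below 0 and their median at -0.06, where the members' median was -0.31. Then 2 members (MCM2 and GINS1) were 1.5-fold lower, with 1.91% of all kept genes, and 18 were lower by at least 0.32, with 13.2% of all. The median of the other fork and origin genes was then -0.20 and that of the other G1/S regulators -0.16. Repeated quantile normalization gave -0.20 for the fork and origin genes, where the median of all kept genes was -0.02. It gave 12 members lower by at least 0.32, with 10.5% of all kept genes. With a floor at the 75th percentile the medians of the checkpoint and repair genes (0.0079) and of the cell-cycle brakes and MuvB subunits (-0.12) changed sign. That floor leaves each gene's difference as it was and takes dimmer genes out of the lists. Of the brakes and MuvB subunits, only LIN37, LIN9 and CCNG1 then remained. All 9 genes lower by at least 0.32 remained so under the 6 settings that give a value per gene. No floor, the stricter floor and the mean of probe sets could not change this. Each of the 9 has 1 probe set and lies above the stricter floor. Centring could only lower them, so only the loess correction and the repeated quantile normalization could have changed it. No paired analysis was possible because each group has 1 sample, and for the same reason no sample could be left out. Whether dim probe sets such as that of DUT were above background is unknown.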

Other observations

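Some pairs of related genes, picked after their values were seen, are given here as values only; how many of them differ in sign was fixed by the choice. CCNE1 stood 0.48 above CCNE2 in its difference. DBF4B (0.15) stood 0.34 above DBF4 (-0.19), E2F7 0.33 above E2F8, and the pocket protein gene RBL2 (0.21) 0.30 above RBL1 (-0.09). MCM9 (0.16) and MCM8 (-0.02) also differed in sign. CDK6 and CDK4 were both above 0 (0.27 and 0.07), and the histone chaperone genes ASF1A and ASF1B both below it (-0.27 and -0.44). CHEK1 differed by 0.00 and CHEK2 by -0.15. Each value comes from a single probe set per gene and 1 array per condition, and the SD of a single probe set's difference was 0.264, so none of these gaps has a replicate check. Apart from CCNE1 and CCNE2, the gaps named are below 0.373, the SD that this gives for a gap between 2 probe sets.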
